A study of Mus musculus with 15 samples.

Results

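The corticosteroid receptor target genes described here are 9 genes with established induction by the glucocorticoid receptor, the mineralocorticoid receptor or both: Sgk1, Tsc22d3, Fkbp5, Zbtb16, Klf9, Errfi1, Scnn1a, Pdk4 and Angptl4. They were taken by gene symbol from 24982 symbols counted in the RNA-Seq of 15 mouse aortas. All 9 passed the filter on low counts, which left 14121 genes in the tests. The symbols, like the related gene lists used below, were chosen with earlier results of these data known.

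All 15 aortas came from wild-type male C57BL/6 mice 10 months of age, and every mouse received aldosterone by osmotic minipump (200 μg/kg/d) and drinking water with 0.9% NaCl and 0.2% KCl (Aldo-salt) for 7 days. The control group was sham operated, the orchiectomized group had its testes removed 2 weeks before Aldo-salt, and the orchiectomized group with DHT also carried a pellet of dihydrotestosterone, the potent androgen that cannot be aromatized to an estrogen. There were 5 mice per group and 1 poly(A) RNA library per whole aorta. No mice without Aldo-salt were sequenced in this series, so the comparisons bear on androgen status in aldosterone-treated mice and carry no measure of the aldosterone response itself.

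The glucocorticoid and mineralocorticoid receptors are ligand-activated transcription factors of the same family, and they recognize the same kind of DNA element, a palindrome whose 2 arms are separated by 3 bases. Aldosterone acts on the mineralocorticoid receptor, corticosterone acts on both corticosteroid receptors, and the enzymes that make or destroy active corticosterone inside a cell set how much of it each receptor meets. In vessels these receptors are known for effects on smooth muscle tone, inflammation, stiffness and metabolism.

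The shared element is shown because one member carries it close to an annotated transcript start. RefSeq promoter windows of mm10, each running from 250 bases before a transcript start to 50 after it, were at hand for 6 of the 9 members (14 windows). A palindrome, searched on both strands as GNACA and TGTNC with 3 unspecified bases between them, was found in 0.4749% of 32851 windows of this length in the mouse genome. Among the member windows it occurred in only 1, that of a Sgk1 transcript, 188 bases before the start. The sequence on the plus strand at chr10:21993682-21993734, with the palindrome in capitals, reads 5′ to 3′ as follows.
Sgk1: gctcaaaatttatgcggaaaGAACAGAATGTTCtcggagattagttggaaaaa

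The window of Fkbp5 held no such palindrome in its 300 bases, and no window of Zbtb16, Scnn1a or Angptl4 was searched. The single arm TGTTCT, found on either strand in 18.97% of all windows and contained in many palindromes, occurred in windows of Sgk1 and Tsc22d3. The E-box CACGTG, present in 7.15% of all windows, occurred in the same Sgk1 window and in the window of Fkbp5. No window of a member held the D-box or the PPAR element, which occurred in 2.323% and 0.03957% of all windows. These are letter matches and not measured binding sites.

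Library depth ranged from 8268957 to 13816864 gene reads. The library of orchiectomized replicate 2 carried transcripts of another tissue: 12 lung epithelium markers summed to 7659 CPM (read counts scaled to library size) in it and to 4.17 to 43.9 CPM in the other 14 libraries. The edgeR fits were therefore also run without that library, whereas TPM, the exact permutation tests and the ratios to adipocyte markers used all 5 orchiectomized libraries. Smooth muscle markers were high in every aorta (10327 to 24499 summed CPM over 6 genes). Adipocyte markers were abundant as well, from 2206 to 6666 summed CPM over 8 genes. In whole aortas, fewer cells of a type and less RNA per cell cannot be told apart. The labels do not say how cages or days were arranged, and P values measure the spread between these libraries.

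Levels compared between genes were set per length, as TPM over the union of annotated exons. Pdk4, the kinase that switches off pyruvate oxidation, was the most abundant member in all 3 groups, with median TPM of 472 in control, 210.0 in orchiectomized and 264 in DHT-treated mice, and its range did not overlap that of the next member in any group. Scnn1a, the α subunit of the epithelial sodium channel, was the least abundant, with group medians of 0.724, 1.13 and 1.29 TPM. Fkbp5 was 8th of the 9 in each group, from 8.33 to 19.7 TPM in controls, 7.63 to 22.4 after orchiectomy and 23.8 to 41.9 with DHT. Between them, Klf9, Errfi1, Angptl4, Sgk1, Tsc22d3 and Zbtb16 each overlapped its neighbour in the order, in every group.

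The first question was what DHT did in orchiectomized mice. Genes are said to have risen, fallen or been called where the unadjusted P of the edgeR quasi-likelihood test was below 0.01, the threshold of the study. The P values printed from that test are Benjamini-Hochberg adjusted over all genes tested, and those above 0.05 did not pass that correction. Fkbp5 and Zbtb16 rose, by 2.72-fold and 2.05-fold, and were the 2 members called higher. No member was called lower. Of all 14121 genes tested, 2.46% were called higher and 7.27% lower in this comparison, so most called genes fell while both called members rose.

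Fkbp5 (mm10 chromosome 17, 28399094 to 28517527, minus strand) encodes FKBP51, a cochaperone of HSP90 that lowers the hormone affinity of corticosteroid receptors and is itself induced by them and by androgens. Its level was 61.6, 102.6, 75.1, 61.5 and 103.6 CPM in the DHT-treated mice. It was 20.7, 30.0, 47.0, 25.2 and 25.6 CPM in orchiectomized mice and 21.6, 31.3, 26.7, 43.6 and 34.8 CPM in control mice. Each DHT-treated aorta stood above all 10 aortas of the other groups. The means were 80.9 ± 21.0, 29.7 ± 10.2 and 31.6 ± 8.36 CPM (SD, n = 5 each).

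The increase of Fkbp5 over untreated orchiectomized mice was 1.44 on the log2 scale with a standard error of 0.24, with an adjusted P = 0.00777. In this comparison 0.921% of all genes passed the adjusted threshold upward and 2.09% were higher with no overlap between groups. Against control mice Fkbp5 rose by 1.35 (SE 0.24, adjusted P = 0.0347). Fkbp5 was the only member among the 16 genes, 0.113% of those tested, that passed the adjusted threshold upward against control mice. Without orchiectomized replicate 2 the increase over orchiectomized mice was 1.46 (SE 0.27, adjusted P = 0.0146). Orchiectomy itself left Fkbp5 at −0.09 (SE 0.24, adjusted P = 0.908), with a 95% confidence interval of −0.60 to 0.42.

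Zbtb16 (mm10 chromosome 9, 48654297 to 48836222, minus strand) encodes PLZF, a zinc finger transcriptional repressor that glucocorticoids induce in many cell types. The DHT-treated mice had 80.1, 92.4, 69.5, 153 and 116 CPM. Orchiectomized mice had 49.2, 36.5, 84.9, 35.1 and 43.6 CPM, and control mice had 41.8, 53.0, 33.0, 69.3 and 59.4 CPM. Orchiectomized replicate 3 lay inside the DHT-treated range, and the highest control lay just under the lowest DHT-treated value. The group means were 102 ± 33.5 CPM with DHT, 49.9 ± 20.4 after orchiectomy and 51.3 ± 14.3 in controls (SD, n = 5 each).

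Zbtb16 rose by 1.04 over orchiectomized mice (SE 0.27, edgeR adjusted P = 0.0432). Without orchiectomized replicate 2 the value was 0.96 (SE 0.29, adjusted P = 0.0908), so the unadjusted call held and the adjusted one did not. The exact permutation test of the log2 levels gave P = 0.0238, where the smallest possible value is 0.00794. Against control mice Zbtb16 rose by 0.99 (SE 0.27, adjusted P = 0.183), a value that did not pass the correction. Orchiectomy alone gave −0.04 (SE 0.27, adjusted P = 0.963).

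**Figure D1:**
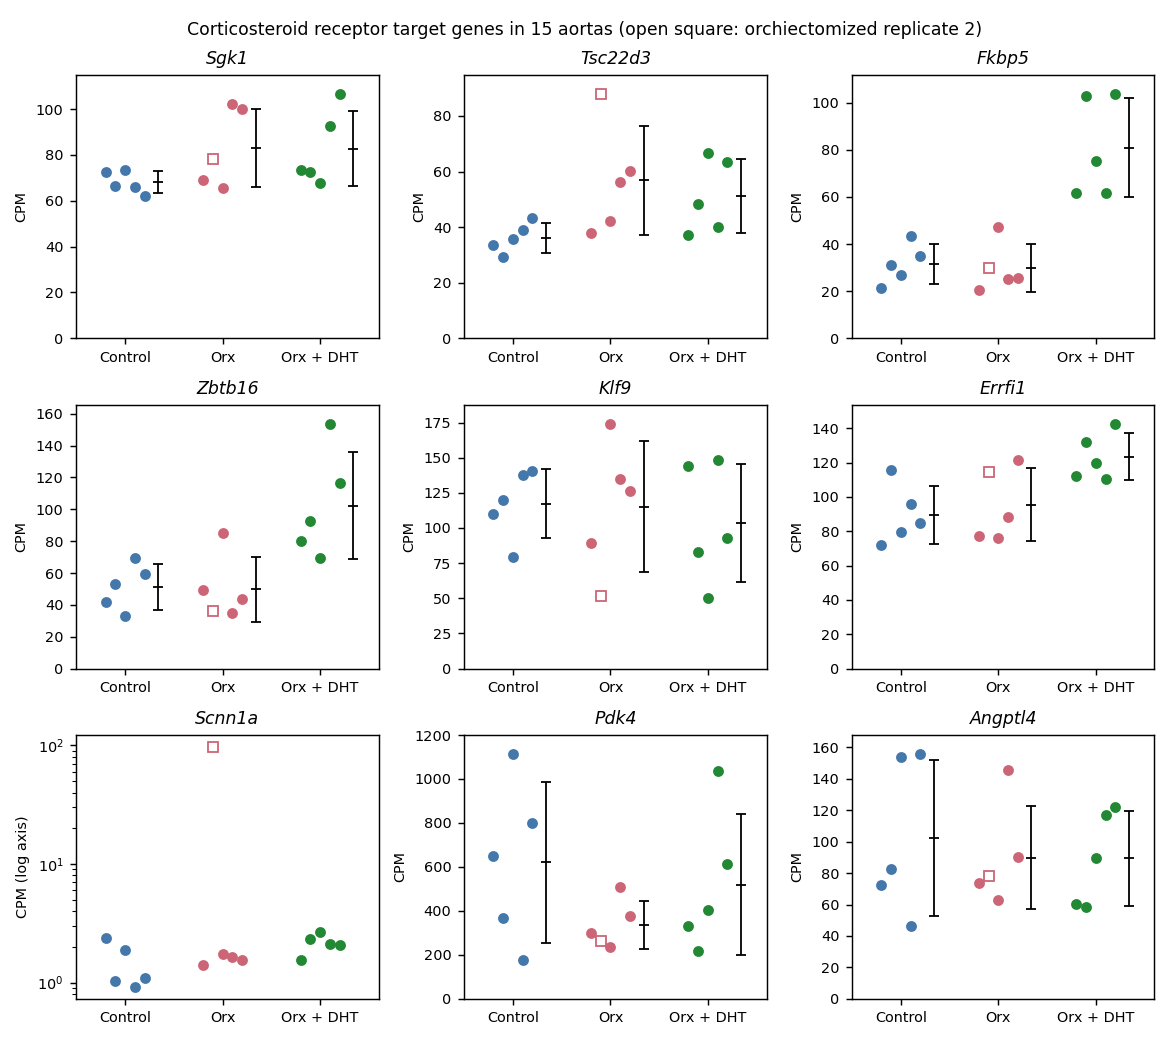
Levels of the 9 corticosteroid receptor target genes in each aorta, in CPM on linear axes from 0 (Scnn1a on a log axis), with 1 point per mouse, groups along the horizontal axis (Orx, orchiectomized), an open square for orchiectomized replicate 2, and a bar for the mean ± SD of 5 mice (not drawn for Scnn1a). The 5 DHT-treated aortas stand above all others for Fkbp5, from 61.5 to 103.6 CPM, and the open square stands at 96.9 CPM for Scnn1a.

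Errfi1 (mm10 chromosome 4, 150853919 to 150868892, plus strand) encodes MIG6, a feedback inhibitor of the EGF receptor that steroids and growth factors induce. Its levels were 112, 132, 119, 111 and 142 CPM with DHT. They were 77.2, 114, 75.9, 88.2 and 122 CPM after orchiectomy and 71.8, 116, 79.6, 96.0 and 84.9 CPM in controls. The DHT-treated aortas lay above all but 1 control and all but 2 orchiectomized aortas. Errfi1 rose over control mice by 0.46 (SE 0.16, adjusted P = 0.282), just inside the unadjusted threshold and not past the correction. Against orchiectomized mice the difference was 0.37 (SE 0.16, adjusted P = 0.185), short of the threshold, and it was 0.46 without replicate 2 (SE 0.16, adjusted P = 0.138).

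Thus 3 members (Fkbp5, Zbtb16 and Errfi1) were higher and none lower in DHT-treated than in control mice, where 1.52% of all genes tested were called higher and 2.01% lower. Fkbp5 and Zbtb16 were the members whose groups did not overlap, against 1.78% of all genes. For Zbtb16 the lowest DHT-treated value was 69.5 CPM and the highest control value 69.3 CPM. In the fit without orchiectomized replicate 2, which scaled the libraries anew, these 2 groups overlapped for Zbtb16. The DHT-treated mice are shared by the comparisons with orchiectomized and with control mice, so the 2 comparisons are not separate experiments. Without orchiectomized replicate 2, 2 members were called higher against orchiectomized mice beside 3.13% of 14188 genes, and 3 against control mice beside 2.26%.

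Markers of several cell types also differed between these groups. The 6 skeletal muscle markers summed to 68.9 to 386 CPM with DHT, 8.52 to 181 after orchiectomy and 36.2 to 464 in controls, and 3 of the 6 were called higher with DHT than after orchiectomy. The 181 CPM belonged to replicate 2, and without it the orchiectomized mice had 8.52 to 50.2 CPM, below every DHT-treated mouse, and 5 of the 6 were called higher. The 6 smooth muscle markers summed to 19668 to 24499 CPM with DHT to 10327 to 20473 after orchiectomy and to 14018 to 20143 in controls, and none of the 6 was called. In the fit without replicate 2, Smtn and Lmod1 of these 6 were called higher with DHT than in controls. Macrophage markers went the other way, with 71.7 to 170 summed CPM over 4 genes with DHT, 157 to 284 after orchiectomy and 88.8 to 272 in controls, and Adgre1 and Csf1r of the 4 were called lower with DHT than after orchiectomy, Adgre1 alone without replicate 2. Fibroblast and lymphocyte markers were also lower with DHT than after orchiectomy, 2 of 5 and 5 of 5 tested genes being called. The 8 epithelial markers summed to 11.4 to 17.5 CPM with DHT, below the 18.2 to 35.3 CPM of controls and the 30.0 to 35.3 CPM of orchiectomized mice other than replicate 2, which had 1082. Without replicate 2, Krt7, Krt8 and Krt19 of the 6 tested were called lower with DHT than in either other group and passed the correction.

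Relations between Fkbp5 and the marker lists were computed within groups. After the group mean was removed from the log2 values of the 15 mice, Pearson r between Fkbp5 and the skeletal muscle sum was −0.221 (permutation P = 0.489, Spearman ρ = −0.186, P = 0.545), and between Fkbp5 and the smooth muscle sum −0.104 (P = 0.761, ρ = −0.129, P = 0.681). All 4 had adjusted P values of 0.801 or more. Fkbp5 varied with the macrophage sum within groups, at r = 0.766 (permutation P = 0.0017, adjusted P = 0.034) and ρ = 0.771 (P = 0.0029, adjusted P = 0.0725), and r was 0.692 without the 2 farthest mice. The values were adjusted over 100 relations, and the part of cell composition in the DHT differences was not tested.

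The second question was what orchiectomy did to these genes under Aldo-salt. With all libraries, Tsc22d3 and Scnn1a were called higher than in control mice and no member was called lower, beside 2.08% and 1.13% of all genes tested. Without orchiectomized replicate 2 neither was called and the count of members was 0, beside 0.846% of 14188 genes. No member was higher with groups that did not overlap, against 0.991% of all genes.

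Scnn1a (mm10 chromosome 6, 125320659 to 125344943, plus strand) encodes a subunit of the sodium channel of kidney, colon and lung epithelium. Orchiectomized replicate 2 held 1095 Scnn1a reads (96.9 CPM). The other orchiectomized mice held 13, 20, 24 and 19 reads, controls 26, 11, 18, 13 and 12, and DHT-treated mice 18, 26, 21, 17 and 20. In CPM the 14 other libraries ranged from 0.921 to 2.69, and the 3 groups overlapped. The log2 difference between orchiectomized and control mice was 3.83 (SE 1.15, adjusted P = 0.285, called) with all libraries and 0.12 (SE 0.30, adjusted P = 0.939, not called) without replicate 2. The difference of DHT-treated from orchiectomized mice turned from −3.26 (SE 1.12, adjusted P = 0.104) to 0.44 (SE 0.30, adjusted P = 0.419) when that library was left out.

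The β and γ subunit genes, Scnn1b and Scnn1g, were named after their values were seen. Scnn1b had 269 reads in orchiectomized replicate 2 and 0 to 4 elsewhere, and Scnn1g had 343 reads there and 1 to 9 elsewhere. Surfactant protein C (Sftpc), specific to alveolar epithelium, had 22367 reads in that library and at most 57 in any other. Scnn1a at 11 to 26 reads in the other 14 libraries leaves little precision, and the 95% confidence interval without replicate 2 ran from −0.51 to 0.76 for orchiectomized against control mice.

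**Figure D2:**
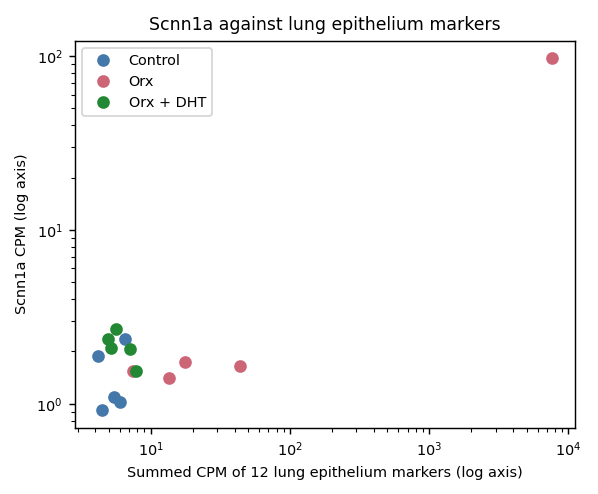
Scnn1a level against the summed level of 12 lung epithelium markers, both in CPM on log axes, with 1 point per aorta colored by group (Orx, orchiectomized). Orchiectomized replicate 2 stands alone at 7659 summed CPM and 96.9 CPM of Scnn1a, and the other 14 aortas lie between 0.921 and 2.69 CPM of Scnn1a.

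Tsc22d3 (mm10 chromosome X, 140539528 to 140600659, minus strand) encodes GILZ, the anti-inflammatory leucine zipper protein induced by glucocorticoids and aldosterone. Controls had 33.6, 29.1, 35.8, 39.0 and 43.2 CPM. Orchiectomized mice had 38.0, 87.9, 42.4, 56.3 and 60.1 CPM, and DHT-treated mice had 37.1, 48.3, 66.5, 40.1 and 63.6 CPM. The highest value, 1.46 times the next orchiectomized one, belonged to replicate 2. Tsc22d3 was higher after orchiectomy by 0.66 (SE 0.22, edgeR adjusted P = 0.308), and the 0.44 without replicate 2 missed the threshold (SE 0.19, adjusted P = 0.651). Immune markers were higher after orchiectomy too, with 4 of 5 tested lymphocyte genes and 2 of 2 tested neutrophil genes called. The 6 lymphocyte markers summed to 6.24 to 92.2 CPM after orchiectomy and 4.26 to 12.3 in controls, and the 5 neutrophil markers to 4.33 to 28.1 and 0.562 to 1.64 CPM. Both highest sums belonged to replicate 2, and the other orchiectomized mice reached 53.4 and 23.4 CPM. Without replicate 2, 3 of the 5 and 2 of the 2 were called, and the part of immune cells in the Tsc22d3 difference was not tested. With DHT Tsc22d3 was 0.50 above controls (SE 0.22, adjusted P = 0.391) and −0.16 relative to orchiectomized mice (SE 0.22, adjusted P = 0.730).

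Sgk1 (mm10 chromosome 10, 21882184 to 21999903, plus strand), the kinase that keeps sodium channels at the cell surface and the standard early target of aldosterone, was tight in controls at 72.7, 66.6, 73.6, 66.1 and 62.0 CPM. It had 69.0, 78.1, 65.7, 102 and 100.2 CPM after orchiectomy and 73.3, 72.7, 67.9, 92.8 and 107 CPM with DHT. A pair of mice in each orchiectomized group stood near or above 93 CPM and the rest lay near the controls. The differences from control were 0.28 in both orchiectomized groups (SE 0.15 in each, adjusted P = 0.449 and adjusted P = 0.480). DHT-treated and orchiectomized mice differed by −0.01, with a 95% confidence interval of −0.32 to 0.31. The coefficient of variation was 7.16% in controls, 20.7% after orchiectomy and 19.8% with DHT.

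Klf9 (mm10 chromosome 19, 23141226 to 23168134, plus strand), a Krüppel-like factor that responds to glucocorticoid pulses, spread widely in each group, from 79.1 to 140 CPM in controls, 51.5 to 174 after orchiectomy and 50.5 to 148 with DHT. Its log2 differences were −0.03, −0.15 and −0.18 (SE 0.31 each), and the 95% intervals reached at least 0.49 on either side of 0. The groups overlapped in every comparison. The 51.5 CPM belonged to orchiectomized replicate 2, and the other orchiectomized mice ranged from 89.2 to 174 CPM. Without that library Klf9 differed by 0.15 after orchiectomy and by −0.33 for DHT over orchiectomized mice (SE 0.29 each).

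Pdk4 (mm10 chromosome 6, 5483351 to 5496309, minus strand) and Angptl4 (mm10 chromosome 17, 33773750 to 33781830, minus strand) are targets of glucocorticoids, fasting and PPARs, and Angptl4 encodes a secreted inhibitor of lipoprotein lipase. Pdk4 had 651, 368, 1111, 176 and 800.1 CPM in controls, 298, 261, 235, 506 and 376 CPM after orchiectomy, and 330.3, 217, 402, 1035 and 615 CPM with DHT. Control values spanned 6.30-fold from lowest to highest, wider than the distance between the group means of 621, 335 and 520 CPM. Pdk4 was −0.89 after orchiectomy (SE 0.46, adjusted P = 0.448) and 0.63 higher with DHT than without (SE 0.46, adjusted P = 0.455). Neither passed the threshold. Angptl4 ranged from 46.6 to 156 CPM in controls, 62.6 to 145 after orchiectomy and 58.1 to 122 with DHT, with differences of −0.18, −0.01 and −0.19 (SE 0.33 each).

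**Figure D3:**
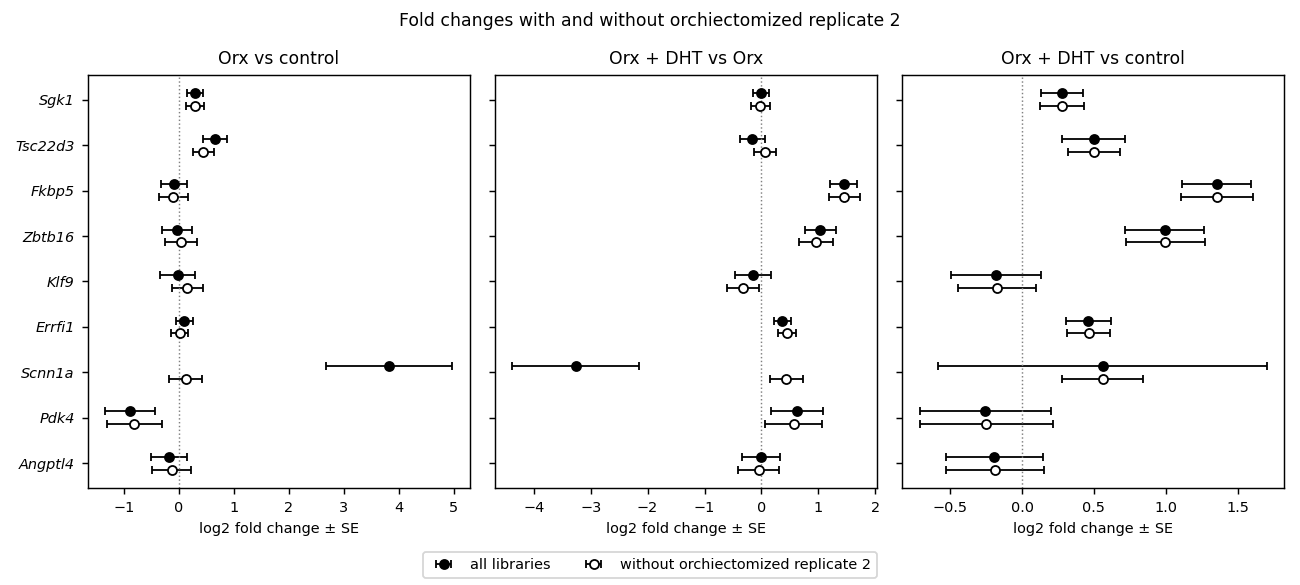
Log2 fold change ± standard error of each member in the 3 comparisons (Orx, orchiectomized), from edgeR, with all 15 libraries (filled points) and without orchiectomized replicate 2 (open points); the horizontal scales differ between panels. Fkbp5 and Zbtb16 lie at 1.44 and 1.04 in DHT-treated against orchiectomized mice and at 1.46 and 0.96 without that library, whereas Scnn1a moves from 3.83 to 0.12 in orchiectomized against control mice.

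Levels of these metabolic members were set beside fat transcripts in the same mice. Within groups, Pdk4 varied with the summed level of 8 adipocyte markers at r = 0.900 (permutation P = 0.00011, adjusted P = 0.006) and ρ = 0.925 (P = 3e-05, adjusted P = 0.003), over 15 mice with the group means removed. Leaving out the 2 farthest mice gave r = 0.875. Pdk4 and Angptl4 varied together at r = 0.887 (permutation P = 0.00012, adjusted P = 0.006) and ρ = 0.843 (adjusted P = 0.0357), or 0.862 without the 2 farthest. Angptl4 and the adipocyte sum gave r = 0.829 (permutation P = 0.00165, adjusted P = 0.034) and ρ = 0.775 (adjusted P = 0.0802).

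The 4 brown fat markers also varied with Pdk4, at r = 0.894 (permutation P = 0.00018, adjusted P = 0.006) and ρ = 0.857 (adjusted P = 0.0357). Of 28 pairs among the 8 members other than Scnn1a, the pair of Pdk4 and Angptl4 alone had an adjusted P below 0.05, and of 72 relations with marker lists 4 did by Pearson r and 2, those of Pdk4 with adipocyte and brown fat markers, by Spearman ρ. Fkbp5 and Zbtb16, both higher with DHT, had r = 0.516 within groups (permutation P = 0.0766, adjusted P = 0.369), ρ = 0.436 (P = 0.137) and r = 0.141 without the 2 farthest mice.

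Adipocyte sums were 2206 to 6666 CPM in controls, 2306 to 4435 after orchiectomy and 2800 to 5973 with DHT. Set against that sum, log2 Pdk4 was −3.09 ± 0.45 in controls, −3.37 ± 0.22 after orchiectomy and −3.28 ± 0.56 with DHT (SD, n = 5 each). The 3 differences of this ratio ranged from −0.28 to 0.09, with exact permutation P values of 0.294 to 0.762. For Angptl4 the ratio was lower with DHT than after orchiectomy by 0.40 (exact permutation P = 0.0238), and adjusted over the 6 comparisons P was 0.143. These ratios were added after the relation had been seen.

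**Figure D4:**
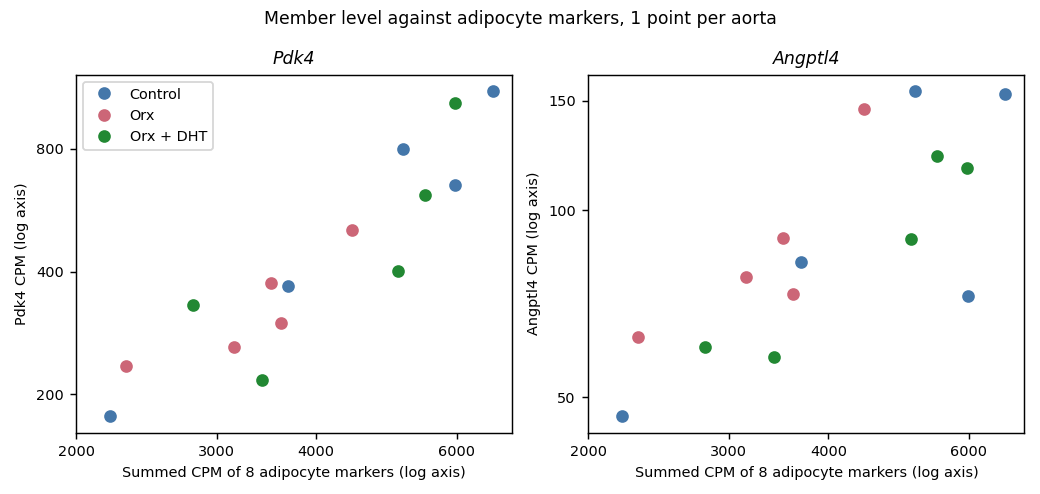
Pdk4 and Angptl4 levels against the summed level of 8 adipocyte markers in the same aorta, all in CPM on log axes, 1 point per mouse, colored by group (Orx, orchiectomized). Both genes were high where adipocyte markers were high in each of the 3 groups, from 176 CPM of Pdk4 at 2206 summed CPM to 1111 CPM of Pdk4 at 6666 summed CPM.

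The genes whose log2 CPM followed each member most closely over the 15 libraries are given with Pearson r, as a description. For Fkbp5 they were Fam107a (r = 0.950) and Adamts14 (0.925). For Errfi1 the closest was Cebpd (0.899), for Sgk1 it was Per1 (0.830), and for Angptl4 they were Pcx (0.882) and Adipoq (0.867), the adiponectin gene. For Zbtb16 they were Wipf2 (0.904) and Myo18b (0.898). For Pdk4, Coq6 and Poldip2 had 0.967 and 0.965, for Klf9, Heatr5b and Ern1 had 0.965 and 0.964, and for Tsc22d3, Zfp296 and Dnase2a had 0.873 and 0.871. Sfn followed Scnn1a at 0.981, which was 0.722 without orchiectomized replicate 2. The points share library and depth, and the coefficients include differences between groups.

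The receptors and enzymes upstream of these targets came next. The glucocorticoid receptor gene Nr3c1 had 206 ± 22.2 CPM in controls, 204 ± 50.4 after orchiectomy and 171 ± 25.5 with DHT (SD, n = 5). The mineralocorticoid receptor gene Nr3c2 had 24.3 ± 3.76, 25.7 ± 4.65 and 22.4 ± 4.03 CPM in the same order. Neither corticosteroid receptor gene passed the threshold in any comparison, with adjusted P values from 0.389 to 0.983. Hsd11b2, which inactivates corticosterone and gives aldosterone its access to the mineralocorticoid receptor in epithelia, had 1 to 12 reads per library and missed the filter.

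Hsd11b1, which regenerates active corticosterone inside cells, fell after orchiectomy and rose with DHT. It had 86.8, 57.5, 91.9, 67.4 and 100.9 CPM in controls, 38.6, 66.0, 32.7, 49.98 and 33.6 CPM after orchiectomy, and 61.1, 69.0, 51.4, 96.3 and 67.0 CPM with DHT. Only orchiectomized replicate 2 reached into the control range. The log2 difference was −0.87 after orchiectomy (SE 0.22, edgeR adjusted P = 0.244) and 0.64 for DHT over orchiectomized mice (SE 0.22, adjusted P = 0.103). Without replicate 2 they were −1.07 (SE 0.21, adjusted P = 0.218) and 0.85 (SE 0.21, adjusted P = 0.0427).

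H6pd, whose product supplies the NADPH for that reaction, had 231 ± 33.6 CPM in controls, 170 ± 22.3 after orchiectomy and 224 ± 34.9 with DHT (SD, n = 5). It fell by 0.44 after orchiectomy (SE 0.13, adjusted P = 0.285) and rose by 0.40 with DHT (SE 0.13, adjusted P = 0.0971), and without replicate 2 the values of −0.39 (adjusted P = 0.597) and 0.35 (adjusted P = 0.170) missed the threshold. These were the only genes called among the 11 tested of the steroid receptor and hormone handling list. Both orchiectomy and DHT differences share the orchiectomized mice, and neither gene differed between DHT-treated and control mice past the threshold (Hsd11b1 −0.23, adjusted P = 0.701, and H6pd −0.04, adjusted P = 0.920). The median log2 difference of the list was −0.02 after orchiectomy and 0.06 with DHT, beside 0.04 and −0.02 over all genes tested. Fat markers moved in the same directions as Hsd11b1 and H6pd, with medians of −0.54 and 0.48 over the 8 adipocyte genes and −0.82 and 0.71 over the 4 brown fat genes, of which 1 in each list was called lower after orchiectomy while with DHT none was called higher and 1, the brown fat gene Dio2, was called lower. Their part in these differences, and in the orchiectomy difference of Lpin1, was not tested.

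Of 21 other corticosteroid-induced genes 20 were tested. In DHT-treated mice 2 were called higher than in orchiectomized mice, Mt1 and Mt2, the metallothioneins that bind zinc and copper, where 2.46% of all genes were called higher. Against control mice 4 were called higher, Per1, Cebpd, Mt1 and Mt2, where the share of all genes was 1.52%, and this comparison differs by orchiectomy as well as by DHT. Mt2 had 87.3, 92.6, 134, 83.7 and 157 CPM with DHT, all above the 25.3 to 57.3 CPM after orchiectomy and the 34.7 to 69.6 CPM of controls. It rose over orchiectomized mice by 1.43 (SE 0.26, edgeR adjusted P = 0.0113) and over controls by 1.11 (SE 0.26, adjusted P = 0.0929). Mt1, described because of this count, rose by 0.94 (SE 0.28, adjusted P = 0.0668) and 0.99 (SE 0.28, adjusted P = 0.190). Mt1 and Mt2 are similar in sequence, and how reads shared by such genes were counted is not given in the sources used here.

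After orchiectomy Per1 and Nfkbia rose and Lpin1 fell in this list, where 2.08% of all genes were called higher and 1.13% lower. Per1, a clock gene that glucocorticoids induce, had 23.0 to 28.1 CPM in controls, 32.4 to 66.5 after orchiectomy and 35.7 to 65.6 with DHT, with both orchiectomized groups wholly above the controls. It rose by 1.01 (SE 0.20, edgeR adjusted P = 0.131) and with DHT was 0.86 above controls (SE 0.20, adjusted P = 0.0915). Lpin1 fell by 1.16 on the log2 scale (SE 0.33, adjusted P = 0.269). Nfkbia, named because of this count, rose by 0.49 (SE 0.15, adjusted P = 0.288), and without replicate 2 it was at 0.42 and missed the threshold (adjusted P = 0.613). Cebpd, which codes for a C/EBP transcription factor, was called 0.53 above controls with DHT (SE 0.15, adjusted P = 0.187). The median of the 20 genes was 0.13 after orchiectomy, −0.02 for DHT over orchiectomized mice and 0.22 for DHT over control mice, where the median of all genes was 0.04, −0.02 and 0.00.

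**Figure D5:**
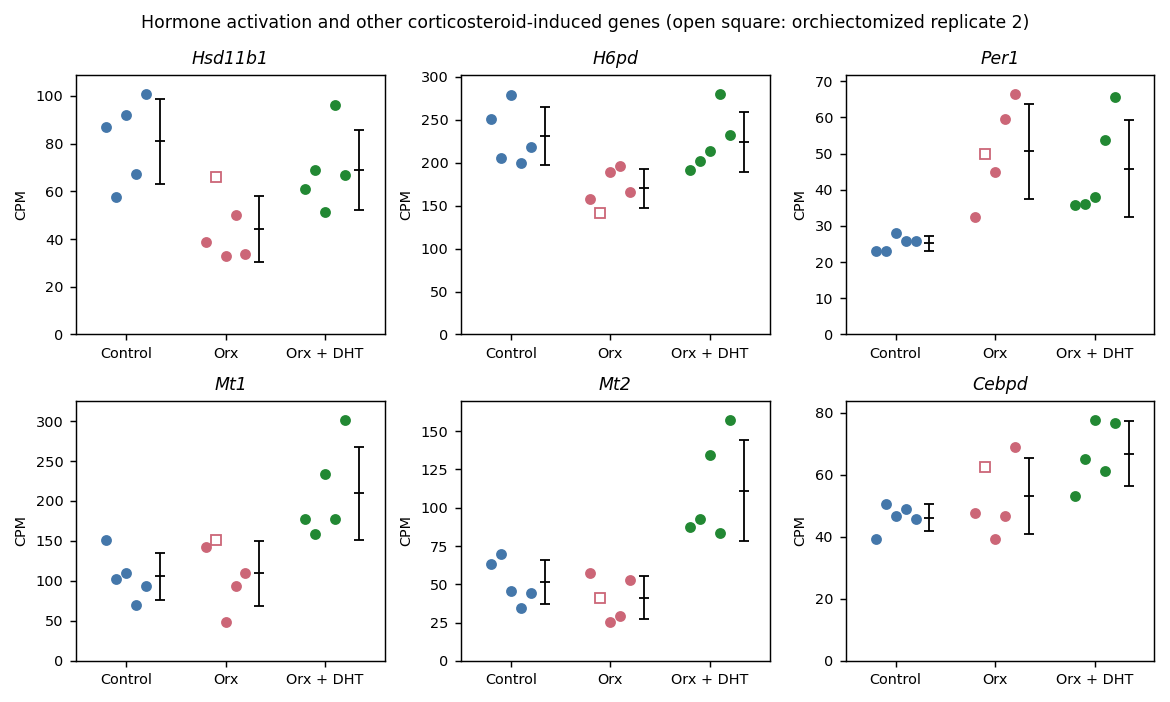
Levels of 6 genes related to the members in each aorta, in CPM on axes from 0, with 1 point per mouse, an open square for orchiectomized replicate 2 (Orx, orchiectomized) and a bar for the mean ± SD of 5 mice. Hsd11b1 and H6pd were lowest after orchiectomy (44.2 ± 14.0 and 170 ± 22.3 CPM), Per1 was high in both orchiectomized groups, and Mt1 and Mt2 were high with DHT.

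Per1 also belongs to the circadian clock list, of which all 14 genes were tested. In that list 6 genes rose and 2 fell after orchiectomy, among them Dbp by 2.19 (SE 0.35, adjusted P = 0.0960), Tef by 0.72 (SE 0.12, adjusted P = 0.0960) and Per3 by 0.99 (SE 0.19, adjusted P = 0.131), whereas Arntl fell by 0.74 on the log2 scale (SE 0.12, adjusted P = 0.0960). In DHT-treated against control mice 5 rose and 1 fell, with Dbp up by 1.79 (SE 0.34, edgeR adjusted P = 0.0464). In DHT-treated against orchiectomized mice 1 gene, Hlf, was called, lower by 0.67 (SE 0.20, adjusted P = 0.0637), and without replicate 2 its value of −0.58 missed the threshold (adjusted P = 0.138). The times of day at which mice were killed are not given in the labels, and their part in these differences was not tested.

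Of the aldosterone and sodium transport genes 9 of 12 were tested, and none was called after orchiectomy. Edn1, the endothelin-1 gene, fell with DHT, at 14.2, 17.3, 9.49, 12.3 and 10.4 CPM against 21.4 to 35.2 after orchiectomy and 20.1 to 48.3 in controls, with no overlap. The decrease was −1.17 relative to orchiectomized mice (SE 0.23, edgeR adjusted P = 0.0156) and −1.33 relative to controls (SE 0.23, adjusted P = 0.0318). Endothelial markers were also lower with DHT, at 537 to 732 summed CPM over 5 genes against 778 to 1134 after orchiectomy and 665 to 1003 in controls, and 2 of the 5 were called lower in each comparison; their part in the Edn1 difference was not tested.

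Among 12 paralogs of the members, Tsc22d1 rose after orchiectomy by 0.40 (SE 0.13, adjusted P = 0.300) and stood 0.58 above controls with DHT (SE 0.13, adjusted P = 0.0908), and Angptl2 fell with DHT relative to orchiectomized mice by 0.48 (SE 0.10, edgeR adjusted P = 0.0204). Without replicate 2 the orchiectomy value of Tsc22d1, 0.25, missed the threshold (adjusted P = 0.638), whereas its difference of DHT-treated from orchiectomized mice, 0.33, was called (adjusted P = 0.0864) and that from controls, 0.58, passed the correction (adjusted P = 0.0173). The other 10 paralogs were not called in any comparison with all libraries, Sgk2, Sgk3, Fkbp4 and Pdk1 to Pdk3 included.

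Of 18 tested PPAR and fatty acid oxidation genes, Plin2, a lipid droplet coat protein, fell after orchiectomy by 1.33 (SE 0.38, adjusted P = 0.280) and rose with DHT by 1.32 (SE 0.38, adjusted P = 0.0624). Ppard rose with DHT over orchiectomized mice by 0.33 (SE 0.10, adjusted P = 0.0839), and at 0.30 without replicate 2 it missed the threshold (adjusted P = 0.144). The list median was −0.62 after orchiectomy, 0.31 for DHT over orchiectomized mice and −0.30 for DHT over controls. Of the 8 adipocyte markers 1 was called lower after orchiectomy, and the list medians of those markers were −0.54, 0.48 and −0.06 in the same order; their part in the PPAR list was not tested.

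Of 11 tested androgen-induced genes, known mainly from prostate, 1 was called. Herc3 fell after orchiectomy by 0.47 (SE 0.14, adjusted P = 0.285), and at −0.39 without replicate 2 it missed the threshold (adjusted P = 0.560), and none was called with DHT. Adrenal cortex markers, which would show steroid-making tissue attached to the aorta, summed to 5.13 to 10.0 CPM over 7 genes in all libraries, with 39 to 97 reads of Star, no read of Cyp11b2 in any and at most 3 reads of Cyp21a1. The 6 kidney tubule markers summed to 5.57 to 29.1 CPM in controls, 2.80 to 16.7 after orchiectomy and 1.85 to 15.6 with DHT. Slc12a1 had no read and Umod at most 4, whereas Aqp2 had 10 to 44 reads, Kap 0 to 239, Slc34a1 0 to 28 and Lrp2 2 to 133. Of the 4 tested, Kap was called lower after orchiectomy (−4.48, SE 1.21, adjusted P = 0.254), and Lrp2 was called lower with DHT than after orchiectomy (−3.86, SE 0.59, adjusted P = 0.00553) and than in controls (−2.95, SE 0.58, adjusted P = 0.0506). These calls held without replicate 2. The highest Lrp2 count, 133 reads, belonged to that library.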

How the data were processed

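RNA-Seq of 15 whole aortas was analysed from the deposited gene counts, whole reads per gene symbol made by the authors and not normalized. The submitters' processing notes name STAR, Cufflinks, DESeq2 and mm10, without versions; the counting program, its strand setting and its annotation are not given in the sources used here. No exon of a member overlapped an exon of another gene in GENCODE M21. Entries naming no gene (no feature, 6.26% to 14.4% as a percentage of all counts with these entries included, and ambiguous, 1.34% to 1.97%) were left out.

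Counts were fitted with edgeR 4.0.16 in R 4.3.3: TMM scaling, genes with a count of about 10 in the smallest group and 15 in total, 3 groups, no covariate, and the quasi-likelihood test, two-sided. A call is an unadjusted P below 0.01, the threshold of the study. The edgeR values printed are Benjamini-Hochberg adjusted, so a called gene can have an adjusted P above 0.05. The adjustment was over 14121 genes with all libraries and over 14188 without orchiectomized replicate 2. Log2 levels used a prior count of 3. TPM covered 24490 of 24982 symbols, holding 99.4% of reads. The edgeR test was checked on simulated counts for 1 comparison. Exact permutation tests were two-sided, and correlations used 100000 permutations within groups.

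Groups came from the sample titles, and replicate counts differed by at least 12.4 chi-square units per gene. Named genes were all members, at most 4 called genes per related list (smallest P first), 5 receptor and enzyme genes, and the 2 genes most like each member. Some genes that this rule names are not reported here. The members and lists were chosen with earlier results of these data known. The alternatives were DESeq2 1.42.0, limma 3.58.1 (voom with quality weights), RLE size factors, other filters, a replicate block, fits of only the groups compared, and leaving out each library.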

Additional observations from a re-analysis of the deposited data

Results flagged for a closer look

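Among 27 sets of 5 libraries (9 members in 3 groups), the Scnn1a level of orchiectomized replicate 2 stood apart: its gap to the nearest orchiectomized library was 0.953 of the whole range of the group on the log2 scale, above the critical value of 0.71. Chance flags about 1 in 20 such sets. That library held 1095 Scnn1a reads where the other 4 held 13 to 24, and it also held the lung epithelium markers at 7659 summed CPM.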

How the results depend on the processing

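Fkbp5 was called higher with DHT, against orchiectomized and against control mice, under every alternative run and without each of the 15 libraries in turn. Zbtb16 was called against orchiectomized mice in all 15 of those fits (0.86 to 1.35) and against controls in 14, the exception being without DHT-treated replicate 4 (0.79). The count of 2 members higher after orchiectomy became 0 at an adjusted P below 0.05, with only the compared groups, and in both permutation tests, became 1 with RLE size factors, without a filter, with at least 10 counts in every library and in both DESeq2 fits, and ranged from 0 to 2 without single libraries. DESeq2 gave no P value for Scnn1a after orchiectomy. By limma the count stayed at 2, but Sgk1 was called (0.43) and Scnn1a was not (0.40). The count of 2 higher with DHT over orchiectomized mice became 1 in both permutation tests, and that of 0 lower became 1 without a filter (Scnn1a) and ranged from 0 to 1 without single libraries. The count of 3 higher with DHT over controls became 1 at an adjusted P below 0.05. In both permutation tests Errfi1 was not called over controls (exact permutation P = 0.0238). In the DESeq2 fit of only the compared groups Tsc22d3 was called over controls (0.51). Without single libraries this count ranged from 2 to 3. Errfi1 against controls was called in 6 of 15 such fits (0.39 to 0.57) and Tsc22d3 after orchiectomy in 5 of 15 (0.44 to 0.74).

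Over all genes, calls after orchiectomy, 294 higher and 160 lower in the fit reported, were 0 and 0 at an adjusted P below 0.05, 498 and 254 without a filter, 168 higher with at least 10 counts in every library, 140 higher with only the compared groups, and 316 and 350 lower in the DESeq2 fits. With DHT over orchiectomized mice, 347 higher became 645 and 705 in the DESeq2 fits; with DHT over controls, 214 higher became 326 and 532 there, 341 with only the compared groups and 501 by limma. Without single libraries, calls after orchiectomy ran from 120 (without orchiectomized replicate 2) to 396 higher while those lower fell to 78 when control replicate 1 was left out and reached 446 when control replicate 4 was, and with DHT over controls from 115 to 321 higher and 168 to 360 lower, both lowest without control replicate 5 and the lower calls equally low without DHT-treated replicate 5. The cause of these changes was not tested.

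The replicate numbers did not pair the mice: correlations of same-numbered libraries ran from −0.466 to 0.463, and 5 of 15 were over 0.1. With the replicate block, 0 members were higher after orchiectomy, 3 with DHT over orchiectomized mice (Errfi1 joined, 0.39) and 3 over controls, and calls over all genes were 180 higher and 105 lower after orchiectomy and 218 higher with DHT over orchiectomized mice.

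Apart from Scnn1a, directions turned only for differences smaller than their standard errors in the fit reported. The largest of these was −0.26 (SE 0.46), that of Pdk4 with DHT over controls. Klf9 after orchiectomy was 0.047 by limma. With DHT over orchiectomized mice, Sgk1 was 0.021 (RLE), 0.031 (no filter), 0.0090 (at least 10 counts), 0.014 (compared groups), 0.020 and 0.025 (DESeq2); Angptl4 was 0.018, 0.027, 0.0060, 0.0081, 0.019 and 0.023 in that order; and Scnn1a was 0.24 by limma. Relative to adipocyte markers, Angptl4 after orchiectomy was 0.30. Without single libraries, ranges that crossed 0 were, after orchiectomy, Fkbp5 −0.35 to 0.055, Zbtb16 −0.35 to 0.089, Klf9 −0.24 to 0.15, Errfi1 −0.012 to 0.20 and Angptl4 −0.45 to 0.019; with DHT over orchiectomized mice, Sgk1 −0.087 to 0.11, Tsc22d3 −0.25 to 0.062, Klf9 −0.33 to 0.067, Scnn1a −3.56 to 0.44 and Angptl4 −0.12 to 0.27; and with DHT over controls, Pdk4 −0.68 to 0.048 and Angptl4 −0.38 to 0.010. Of the related-list genes called, 29 calls held without orchiectomized replicate 2 and 8 did not, an alternative chosen after the data were seen. At 11 to 26 reads per library, Scnn1a allowed no fine comparison.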
